A study of Mus musculus with 15 samples.

Results

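The 10 genes described here belong to the heat shock and protein folding stress responses and were followed on 15 Affymetrix arrays of mouse lung cells. The members were taken as all probe sets whose symbol in the platform annotation was Hspa1a, Hspa1b, Hspa8, Hspa5, Hsp90aa1, Hsp90ab1, Hsph1, Hspb1, Dnajb1 or Ddit3. Of these 10 genes, 9 were measured, by 24 of the 45037 probe sets that are no array controls. No probe set carried the symbol Hsp90ab1 in the annotation used here, and that gene was not analysed here. The arrays were of H1 hyperplasias (3 arrays, lesion replicates 2, 3 and 4), H2 hyperplasias (4 arrays, lesion replicates 1, 5, 6 and 7) and normal lung cells (8 arrays). All were cut by laser capture from frozen lung sections of mice with a K-RasG12V knock-in allele, 3 months after an adenovirus carrying Cre was given. The normal cells thus came from infected lungs of the same mouse model, and were taken from the same sections as the lesions. The allele also drives a colour marker by which lesion cells were recognised, and about 500 cells were taken per lesion. The sources used here do not give how a lesion came to be labelled H1 or H2, the number of mice, or which regions shared a mouse. Regions of a shared mouse are not independent, so p-values may be too small where sharing lies within a group, or too large where it lies between groups. In such bulk samples, fewer cells of a type and less RNA per cell cannot be told apart.

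Molecular chaperones bind unfolded stretches of other proteins and help them fold, reach their place or be broken down. In the cytosol, heat and other protein-damaging stress free the transcription factor HSF1 to bind heat shock elements and switch on the inducible Hsp70, Hsp40, Hsp110, Hsp90 and small heat shock protein genes. In the endoplasmic reticulum (ER), misfolded protein sets off the unfolded protein response, which raises the ER chaperone Hspa5 (BiP) and, through ATF4, the transcription factor Ddit3 (CHOP). Alveolar type 2 (AT2) cells, which make surfactant, fold much secreted protein in the ER.

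The promoters of 4 genes are shown because they carry the motifs that mark the 2 branches of the response. RefSeq promoter sequences on build GRCm38.p6, from 250 bases before to 50 bases after the annotated start, were found for 7 of the 9 measured genes, as 9 entries. Only the 250 bases before the start are printed. Capitals mark letters of a heat shock element core (GAANNTTC or, in the other phase, TTCNNGAA) or of the ER stress element (CCAAT, then 9 bases of any kind, then CCACG). All motifs were searched on both strands.
Hspa1a, chr17:34972157-34972406, minus strand: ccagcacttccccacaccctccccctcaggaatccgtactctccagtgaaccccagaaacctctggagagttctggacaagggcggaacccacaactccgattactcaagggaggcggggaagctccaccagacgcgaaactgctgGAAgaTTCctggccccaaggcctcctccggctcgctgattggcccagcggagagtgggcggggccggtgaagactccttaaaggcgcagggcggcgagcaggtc
Hspa1b, chr17:34959239-34959488, minus strand: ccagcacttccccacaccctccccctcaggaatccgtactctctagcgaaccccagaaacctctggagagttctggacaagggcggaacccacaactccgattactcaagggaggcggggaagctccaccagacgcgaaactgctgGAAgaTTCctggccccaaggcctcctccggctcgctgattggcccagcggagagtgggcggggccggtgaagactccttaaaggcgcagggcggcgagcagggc
Hspb1, chr5:135887669-135887918, plus strand: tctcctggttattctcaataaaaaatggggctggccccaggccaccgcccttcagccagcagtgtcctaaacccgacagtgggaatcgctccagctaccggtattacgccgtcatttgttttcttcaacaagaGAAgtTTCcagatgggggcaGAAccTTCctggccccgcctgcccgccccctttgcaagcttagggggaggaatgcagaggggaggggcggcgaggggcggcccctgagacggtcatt
Hspa5, chr2:34771840-34772089, plus strand: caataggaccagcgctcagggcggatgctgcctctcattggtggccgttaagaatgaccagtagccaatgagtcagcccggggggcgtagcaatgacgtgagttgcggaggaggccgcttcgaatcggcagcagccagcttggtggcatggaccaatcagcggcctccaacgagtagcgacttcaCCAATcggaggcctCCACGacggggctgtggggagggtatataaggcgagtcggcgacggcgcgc
The Hspa1a and Hspa1b windows were the same at 296 of 300 bases (98.7%), with 1 GAANNTTC in each. Hspb1 held 2 matches to GAANNTTC. The Hsph1 windows each held 1 GAANNTTC and 2 TTCNNGAA, of which the GAANNTTC and a TTCNNGAA shared their GAA. Hspa5 held the ER stress element and no heat shock core. The Ddit3 window and both Dnajb1 windows held none of these letters. Of all 32851 promoters in the table, 7.86% held GAANNTTC, 8.52% held TTCNNGAA, 15.1% held either, and 0.119% (39 promoters) held the ER stress element. A match describes letters in a window and is not a measured binding site.

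None of the 9 genes passed the test in any comparison, although 8 of 9 had a higher mean on H2 arrays than on normal arrays. Hspa5 had the largest difference between H2 and normal, 2.13 ± 0.65 (log2, standard error, SE), which is 4.37-fold, with an adjusted p of 0.0812 by limma. Hsph1, Hspa8 and Hsp90aa1 differed by 1.71, 1.50 and 1.51 on the same scale, all toward H2. Hspa1a, Hspb1 and Ddit3 differed by -0.21, 0.34 and 0.35. Throughout, values are deposited log2 signals of the probe set with the highest mean for each gene, differences are first-named minus second-named group with their SE, and group levels are means ± SD. A signal also depends on the probes, so levels are compared between arrays and not between genes. The number of arrays limits the precision.

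**Figure D1:**
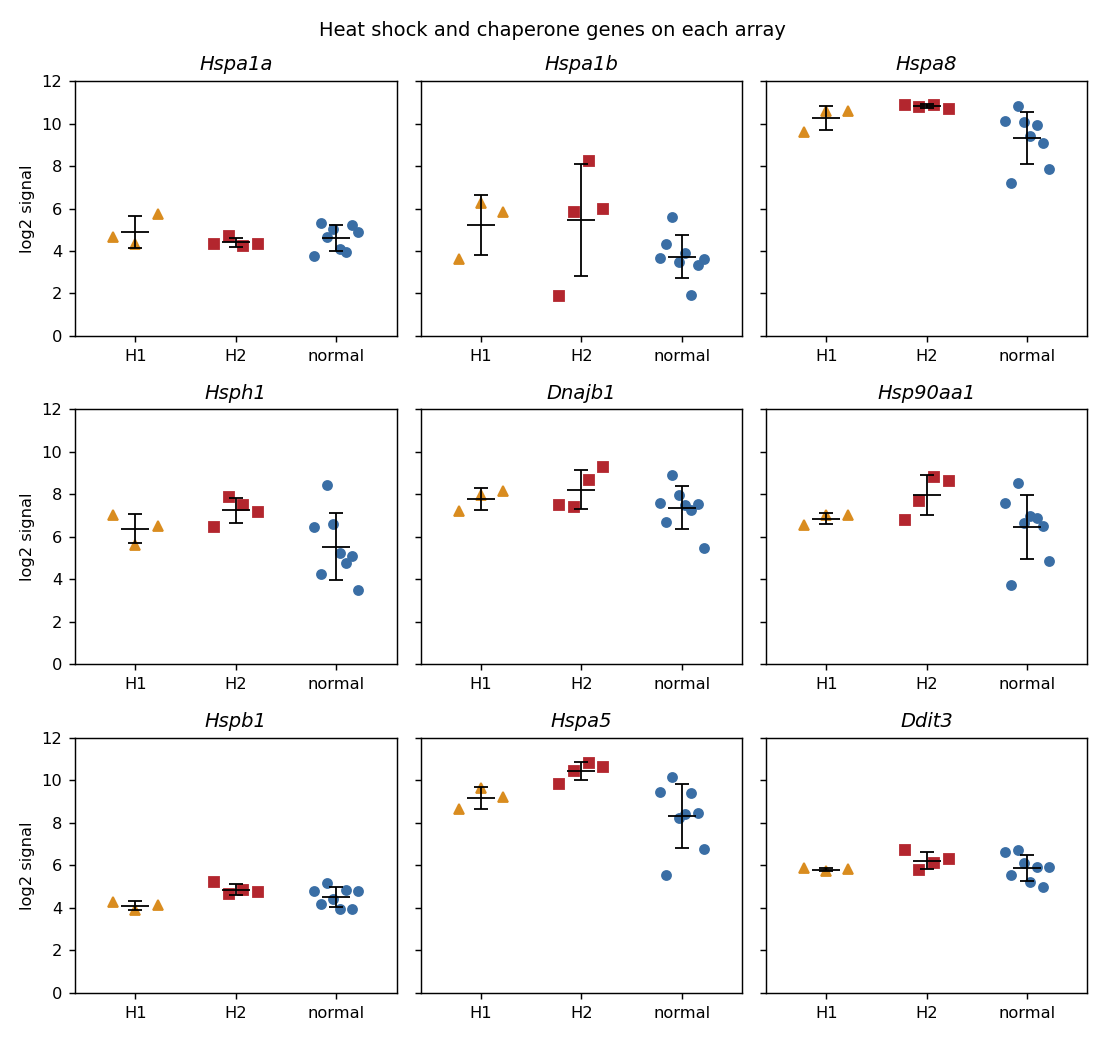
Log2 signal of each measured gene on every array, in H1 (triangles, 3 arrays), H2 (squares, 4 arrays) and normal cells (circles, 8 arrays). Horizontal bars are group means and whiskers are SD. For every gene the H2 range overlaps the normal range. The normal arrays lie between 5.56 and 10.15 for Hspa5.

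Hspa1a and Hspa1b are neighbouring, nearly identical genes for the stress-inducible Hsp70, so which copy a signal comes from is uncertain. Hspa1a (1452388_at) had 4.66, 4.31 and 5.74 in H1 and 4.33, 4.71, 4.21 and 4.35 in H2, against a lowest of 3.78, a median of 4.76 and a highest of 5.30 in normal cells. H1 replicate 4 was above every other array, and the groups otherwise overlapped. Its means were 4.90 ± 0.74 in H1, 4.40 ± 0.21 in H2 and 4.61 ± 0.59 in normal cells. Hspa1b (1452318_a_at) had 3.61, 6.26 and 5.83 in H1 and 1.88, 5.81, 8.23 and 5.98 in H2, against 1.93, 3.65 and 5.61 as the lowest, median and highest in normal cells. In Hspa1b, 5 of the 7 lesion arrays were above every normal array, while H2 replicate 1 was below all of them. The SD of 2.64 in H2 was the largest of the 9 genes in any of the 3 groups, and the difference of 1.74 ± 0.89 from normal had an adjusted p of 0.270 (limma). Without H2 replicate 1 it was 2.93, with an adjusted p of 0.0402 (limma), and without H2 replicate 6 it was 0.82. These were the highest and lowest of the 15 fits that left out 1 array, and Hspa1b was called in 1 of the 15.

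Hspa8 (Hsc70), the Hsp70 that cells make at all times, is read here by 1455789_x_at, a probe set type that may also bind similar transcripts. It had 9.59, 10.58 and 10.60 in H1 and 10.89, 10.79, 10.88 and 10.70 in H2, against 7.20, 9.69 and 10.80 as the lowest, median and highest in normal cells. The H2 arrays had an SD of 0.09, while the normal arrays had an SD of 1.23, and the lowest normal values were of replicates 2 and 8. On probe sets 1420622_a_at and 1420623_x_at the SD was 0.42 and 0.47 in H2, and 1.91 and 1.95 in normal cells. On 1455789_x_at, H2 differed from normal by 1.50 ± 0.53, or 2.83-fold, with an adjusted p of 0.126 (limma), and H1 by 0.94 ± 0.59. Hsph1, an Hsp110 that lets Hsp70 exchange its nucleotide, had 7.02, 5.64 and 6.51 in H1 and 6.45, 7.88, 7.51 and 7.16 in H2. In normal cells its lowest, median and highest values were 3.49, 5.16 and 8.45, the highest being normal replicate 3. H2 differed from normal by 1.71 ± 0.69, or 3.26-fold, with an adjusted p of 0.172 (limma). Dnajb1, an Hsp40 that brings clients to Hsp70 and sets off its ATPase, had 7.21, 7.96 and 8.18 in H1 and 7.52, 7.43, 8.68 and 9.29 in H2, against 5.47, 7.52 and 8.94 in normal cells in the same order. The groups overlapped widely, and H2 differed from normal by 0.85 ± 0.51 (adjusted p 0.344, limma).

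Hsp90aa1 codes for the inducible form of cytosolic Hsp90, which holds kinases and receptors in an activatable shape. It had 6.55, 7.03 and 7.03 in H1 and 6.82, 7.67, 8.84 and 8.64 in H2, against 3.76, 6.78 and 8.54 as the lowest, median and highest in normal cells. H2 replicates 6 and 7 were above every normal array, and normal replicates 2, 7 and 8, at 3.76, 6.51 and 4.86, were below every lesion array. H2 differed from normal by 1.51 ± 0.68, or 2.85-fold, with an adjusted p of 0.216 (limma), and H1 by 0.39 ± 0.76. Hspb1 (Hsp27), a small heat shock protein that keeps unfolded proteins soluble, had 4.28, 3.89 and 4.15 in H1 and 5.21, 4.66, 4.84 and 4.74 in H2, against 3.93, 4.62 and 5.19 in normal cells. Every H1 array was below every H2 array, and both overlapped normal cells. The means of Hspb1 were 4.11 ± 0.20 in H1, 4.86 ± 0.24 in H2 and 4.52 ± 0.47 in normal cells.

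Hspa5 (BiP), the Hsp70 of the ER lumen, had 8.64, 9.65 and 9.24 in H1 and 9.84, 10.42, 10.83 and 10.65 in H2, against 5.56, 8.44 and 10.15 as the lowest, median and highest in normal cells. In Hspa5, 3 of 4 H2 arrays were above every normal array, and normal replicate 3 was above the other. The means of Hspa5 were 9.18 ± 0.51 in H1, 10.44 ± 0.43 in H2 and 8.31 ± 1.51 in normal cells. H1 differed from normal by 0.87 ± 0.72, within the spread between normal arrays. Ddit3 (CHOP), a transcription factor that rises in lasting ER stress, had 5.87, 5.73 and 5.81 in H1 and 6.73, 5.77, 6.11 and 6.30 in H2, against 4.98, 5.91 and 6.72 in normal cells. Its groups overlapped, and H2 differed from normal by 0.35 ± 0.30 (adjusted p 0.529, limma).

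In the 3-group test of H2 against normal, 0 of 9 genes were called at an adjusted p under 0.05 (limma), against 3.38% of all 18193 genes in either direction and 2.89% called higher. At an unadjusted p under 0.05, 4 were higher and 0 lower, namely Hspa5, Hspa8, Hsph1 and Hsp90aa1, and 12.7% of all genes were higher by that rule. Of the 373 genes with a mean signal of 8 or above, where Hspa5 and Hspa8 lie, 202 were higher by it. For 0 of 9 did H2 and normal arrays not overlap, against 3.79% of all genes. The median difference of the 9 genes was 1.50, with 8 above 0, whereas all genes had a median of -0.04. In H1 against normal, 0 of 9 were called (0.0110% of all genes), 0 had an unadjusted p under 0.05 in either direction (4.23%) and 0 had groups that did not overlap (1.40%). The H1 median was 0.41, with 7 above 0, and all adjusted p-values were between 0.997 and 0.998 (limma). With H1 and H2 pooled as lesions, 0 of 9 were called (0.291%), 4 were higher at an unadjusted p under 0.05 (8.10%) and 0 did not overlap (0.225%). Those 4 were Hspa8, Hspa5, Hsph1 and Hspa1b, with lesion-minus-normal differences of 1.26 ± 0.45, 1.59 ± 0.57, 1.34 ± 0.59 and 1.63 ± 0.73. Of the 373 genes with a mean signal of 8 or above, 149 were higher in lesions by the same rule. These comparisons share the normal arrays. The call of 0 in H2 against normal changed when arrays were left out or weighted: 3 genes (Hspa5, Hsph1 and Hspa8) were called higher without normal replicate 3, 1 (Hspa1b) without H2 replicate 1, and 5 with array weights. In those fits 6.07%, 2.32% and 8.72% of all genes, in the same order, were called higher.

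**Figure D2:**
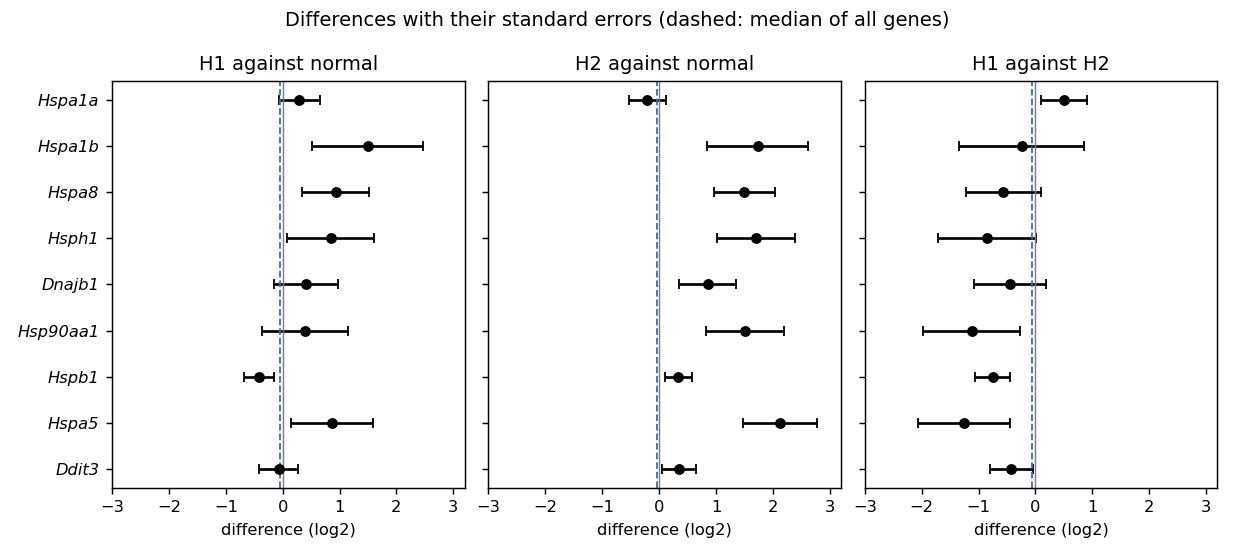
Difference (log2) with its SE for each gene, in panels for H1 and for H2 against normal cells and for H1 against H2. Dashed lines are the median of all 18193 genes, which is near 0 in every panel. In H2 against normal 8 of 9 genes lie above 0, and 8 lie below 0 in H1 against H2.

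In H1 against H2, 0 of 9 genes were called, against 0.00550% of all genes (limma). The median difference was -0.56, with 8 of 9 below 0, and the median of all genes was -0.06. Hspb1 alone had an unadjusted p under 0.05, lower in H1 (-0.75 ± 0.30, adjusted p 0.352, limma), and 7.41% of all genes were lower by that rule. In 3 genes, Hspa5, Hspa8 and Hspb1, every H1 array was below every H2 array, and so it was in 10.1% of all genes. For Hspa5 and Hspa8 this depended on the probe set. Hspa8 probe sets 1420622_a_at (H1 up to 10.49, H2 from 9.87) and 1420623_x_at (9.97 and 9.16) overlapped, as did Hspa5 probe set 1447824_x_at. Their probe sets 1431182_at and 1427464_s_at were separated in the same direction, as was Hspb1 probe set 1422943_a_at. Hspa5 differed by -1.26 ± 0.81, Hsp90aa1 by -1.12 ± 0.85 and Hspa1a, the only gene above 0, by 0.50 ± 0.40.

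Probe sets of a gene did not always move together. In H2 against normal, the 3 Hspa5 probe sets differed by 2.13, 2.13 and 0.76 and the 4 Hspa8 probe sets by 1.71, 1.62, 1.03 and 1.50. The 5 Hsp90aa1 probe sets differed by 0.61, -0.39, 0.60, 1.51 and -0.81, so the direction for this gene depends on the probe set. Probe set 1441827_x_at, at -0.81, had its highest value, 7.99, on normal replicate 2, where 1438902_a_at had its lowest, 3.76. The 3 Hspa1b probe sets differed by 0.33, 0.47 and 1.74, so the largest value for Hspa1b comes from 1 probe set. None of the 24 probe sets was called in any comparison by limma, against 0.169% of all probe sets in lesions against normal, 0.00222% in H1 against normal, 2.04% in H2 against normal and 0% in H1 against H2. At an unadjusted p under 0.05, 8 of the 24 probe sets were higher and 0 lower in H2 against normal, and 9.89% of all probe sets were higher by that rule. All 8 belonged to Hspa5, Hspa8, Hsp90aa1 and Hsph1, the genes already counted above. Probe sets of a gene are not independent, and the share among equally bright probe sets was not computed. Hspb1 probe set 1422943_a_at was the only member whose H1 and normal values did not overlap, with 3.24, 3.21 and 2.90 in H1 against 3.48 to 4.66 in normal cells, and 0.866% of all probe sets were so separated and lower. It fell short of a call, at -0.99 ± 0.26 with an adjusted p of 0.999 (limma).

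**Figure D3:**
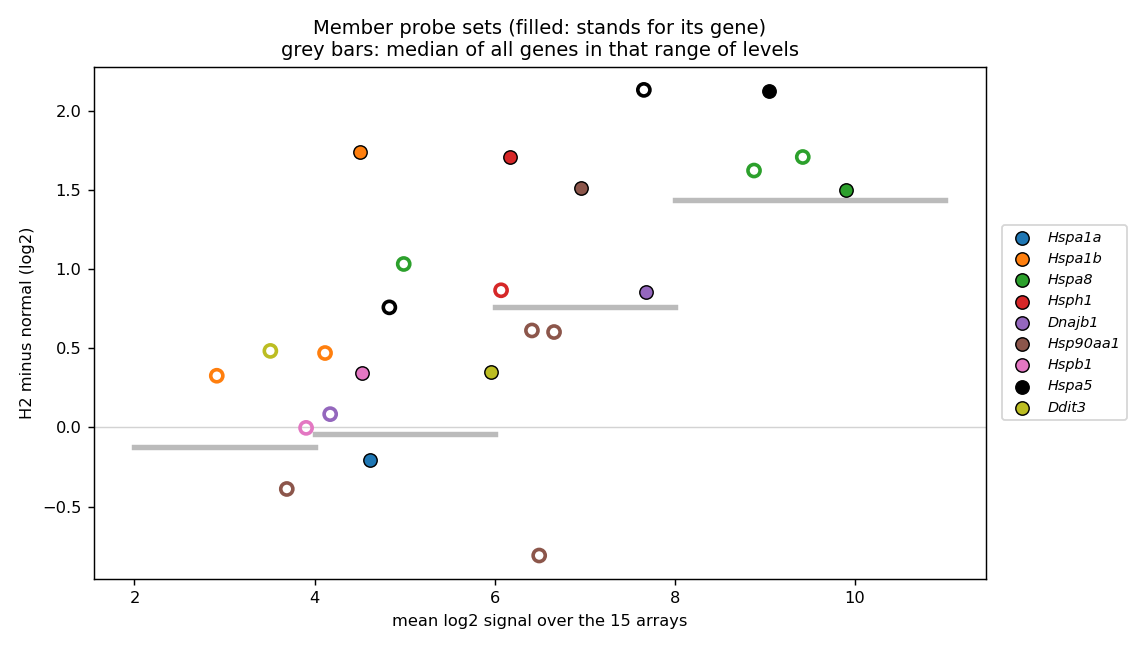
Difference between H2 and normal (log2) of each of the 24 probe sets against its mean log2 signal over the 15 arrays. Filled points stand for their gene, open points are its other probe sets, and grey bars are medians of all genes in 4 ranges of mean signal. Bright Hspa5 and Hspa8 points lie near or above the bar at 1.44.

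Bright genes as a whole stood higher on H2 arrays. Among the 373 genes with a mean signal of 8 or above, the median difference between H2 and normal was 1.44 (quartiles 0.75 and 1.87), and 86.6% were above 0. Hspa5 (2.13) and Hspa8 (1.50) were in this range. Among the 1993 genes with means of 6 to 8, the median was 0.76 (quartiles 0.04 and 1.38), beside 1.71 for Hsph1, 1.51 for Hsp90aa1 and 0.85 for Dnajb1. In the 9160 genes with means of 4 to 6, the median was -0.04, and Hspa1a, Hspa1b, Hspb1 and Ddit3 lay in it. Of these genes, Hspa5, Hsph1 and Hsp90aa1 exceeded the upper quartile of their range, as did Hspa1b, Hspb1 and Ddit3, whose range had an upper quartile of 0.32. In H1 against normal the medians of the 2 brightest ranges were 0.19 and 0.50, and in H1 against H2 they were -0.55 and -0.88. These ranges were chosen after seeing the data.

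The levels of Hspa5, Hsp90aa1 and Hspa8 ran with how widely values spread on an array, measured as the SD of the gene values. Of 18 relations (9 genes, within lesions and within normal arrays), 5 had an adjusted p under 0.05 for Pearson's r and 4 for Spearman's rho, by exact permutation. That spread was 1.42 ± 0.10 in H1, 1.64 ± 0.12 in H2 and 1.38 ± 0.18 in normal cells, and the narrowest arrays were normal replicates 2 and 8 (1.14 and 1.20). Within the 8 normal arrays, Hspa5 correlated with it at r = 0.95 (exact two-sided permutation p = 4.96e-05, adjusted 0.000893; Spearman rho 0.976, p = 0.000397, adjusted 0.00714). Without the 2 arrays farthest from the median spread, r was 0.96. Within the 7 lesion arrays r was 0.93 (exact permutation p = 0.00258, adjusted 0.00929; rho 0.929, p = 0.00675, adjusted 0.0405), and 0.90 without the 2 farthest. Hsp90aa1 gave r = 0.92 in normal arrays (exact permutation p = 0.000595, adjusted 0.00536; rho 0.952, p = 0.00114, adjusted 0.0103; 0.86 without the 2 farthest) and 0.93 in lesions (p = 0.00218, adjusted 0.00929; rho 0.857, p = 0.0238, adjusted 0.0857; 0.94 without them). Hspa8 gave 0.90 in normal arrays (exact permutation p = 0.00246, adjusted 0.00929; rho 0.857, p = 0.0107, adjusted 0.0482; 0.87 without them) and 0.72 in lesions (p = 0.0585, adjusted 0.117; rho 0.679, p = 0.110, adjusted 0.197; 0.71 without them). Hspa1a ran the other way, at -0.61 in normal arrays (exact permutation p = 0.113, adjusted 0.169; rho -0.762, p = 0.0368, adjusted 0.110; -0.72 without them) and -0.31 in lesions (p = 0.484, adjusted 0.513; rho -0.214, p = 0.662, adjusted 0.700; -0.34 without them). The other 5 genes had r between 0.15 and 0.83, with adjusted p between 0.0566 and 0.754 (exact permutation). Among them, r of Hspa1b in normal arrays was 0.15, and -0.89 without the 2 farthest. Array spread is itself computed from all genes, the members included. Array medians lay close together, so bright genes tend to stand higher on arrays of wider spread. Whether the spread follows from higher bright genes, or the reverse, was not tested. Only the 9 members were set against spread, so the share of all or of equally bright genes with such relations is not known. These p-values thus do not set the members apart from other bright genes. With spread as a covariate, the H2-minus-normal difference was 0.28 for Hspa5 (adjusted p 0.815, limma), 0.15 for Hspa8, -0.42 for Hsp90aa1 and 0.31 for Hsph1. Spread itself differed between these groups and was computed from the same values, so this covariate can also take up a group difference. What part of the differences goes with spread alone was not tested.

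**Figure D4:**
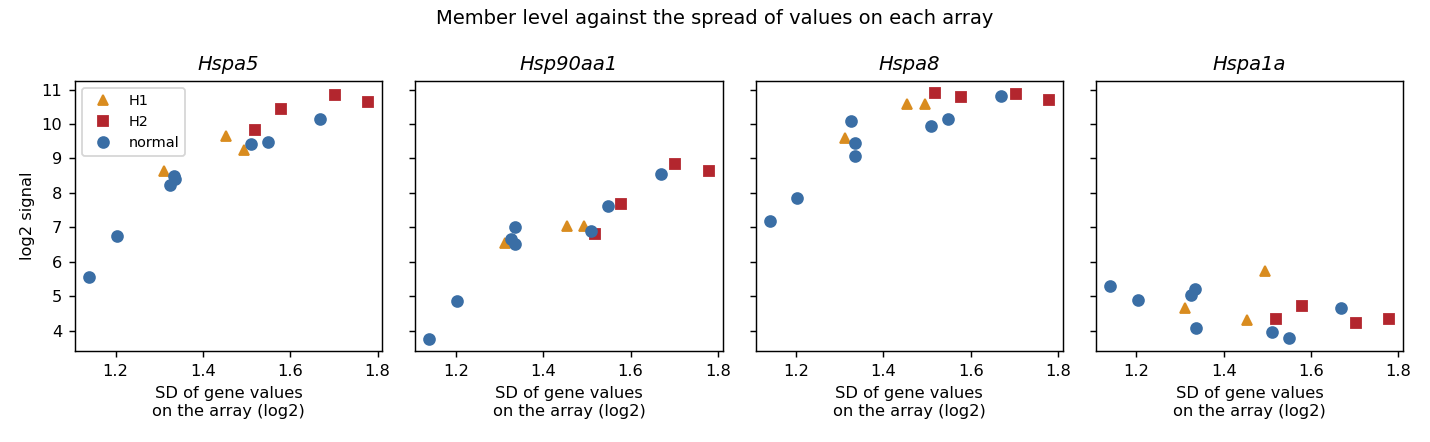
Log2 signal of Hspa5, Hsp90aa1, Hspa8 and Hspa1a against the SD of gene values on the same array, with triangles for H1, squares for H2 and circles for normal arrays. Hspa5, Hsp90aa1 and Hspa8 increase with the spread within normal arrays (r = 0.95, 0.92 and 0.90), while Hspa1a does not.

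Some cell type markers and RNA measures also differed between the groups. AT2 markers (8 of 9 measured) averaged 8.27 in H1, 8.99 in H2 and 7.17 in normal cells, ranging over 7.38 to 9.58 on lesion arrays and 4.55 to 9.41 on normal arrays. All 8 were above 0 in H2 against normal, 1 of them called. Endothelial markers (8 of 8) averaged 4.62 in H1, 4.63 in H2 and 5.38 in normal cells, and macrophage markers (6 of 7) 6.08, 6.40 and 5.69 in the same groups. Of the macrophage markers, 4 were above 0 and 2 below 0 in H2 against normal. Alveolar type 1 markers (6 of 6) averaged 6.66 in H1, 7.11 in H2 and 7.16 in normal cells. T cell markers (5 of 6) averaged 4.34, 4.16 and 4.25. The club cell and fibroblast lists each had 1 gene called higher in H2 against normal (limma), Cyp2f2 and Col1a2. No marker list was at 0, since log2 array signals have a floor of background. The 3′-minus-5′ difference of the Actb control probe sets was -0.70 ± 0.60 in H1, -0.003 ± 0.23 in H2 and -0.63 ± 0.62 in normal cells. For the Gapdh control probe sets it was 2.54 ± 0.35 in H1, 3.32 ± 0.86 in H2 and 2.53 ± 0.59 in normal cells. The highest Gapdh value in H2, 4.58, was of replicate 7. The part of cell makeup or RNA state in the differences of the members was not tested.

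Other genes of the same pathways were taken from lists, and their counts in H2 against normal are given beside the 2.89% of all genes called higher. That share depended on brightness. Of genes with means of 6 to 8, 193 of 1993 were called higher, with a median difference of 0.76. Of those with means of 8 or above, 27 of 373 were, with a median of 1.44. The lists were not matched for brightness, so their enrichment was not tested. The cytosolic chaperonin TRiC, which folds actin and tubulin, had 1 of 8 subunits called higher and none lower (limma), all 8 above 0 and a median of 1.73. That subunit, Cct2, averaged 8.69 ± 0.37 in H2 and 7.00 ± 0.58 in normal cells, a difference of 1.69 ± 0.29 (adjusted p 0.00865), and its other probe sets were at 1.62 and 0.42. Of 27 cytosolic chaperones and co-chaperones, 2 were called higher and 0 lower, with a median of 0.42. Ahsa2, a relative of the Hsp90 activator Ahsa1, differed by 1.33 ± 0.32 (adjusted p 0.0347, limma) and Dnajb6, an Hsp40, by 1.46 ± 0.35 (adjusted p 0.0352). The 3 other Dnajb6 probe sets differed by 0.03 to 0.16. Mitochondrial chaperones had 0 of 9 called and a median of 0.78, with Hspe1, the co-chaperonin of Hspd1, at 1.74 (adjusted p 0.0566, limma), the protease subunit Clpp at 1.05 (0.0811) and Hspa9, the mitochondrial Hsp70, at 1.66 (0.157). The other Clpp probe set was at -0.37, the other Hspe1 probe set at 1.16 and the 4 other Hspa9 probe sets at 2.17, 0.18, -0.03 and -0.16. The heat shock regulators had 0 of 5 called and a median of 0.10. The transcription factor Hsf2 was at -0.61 (adjusted p 0.0921, limma), with its other probe set at 0.42. The elongation factor Eef1a1 was at 1.71 (0.228) and the transcription factor Hsf4 at 0.12. Means of Hsf2 (2.30 in H2, 2.92 in normal cells) and Hsf4 (3.06 and 2.94) were below the median probe set mean of 3.99.

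Called genes were also found in the ER lists. Of 20 ER chaperones and folding enzymes, 2 were called higher and 0 lower in H2 against normal (limma), with 17 above 0 and a median of 0.94. Creld2, an ER stress-inducible protein, averaged 6.74 ± 0.25 in H2 and 4.93 ± 0.94 in normal cells (1.82 ± 0.44, adjusted p 0.0346), and Pdia4, a disulphide isomerase, averaged 6.80 ± 0.61 and 5.34 ± 0.59 (1.46 ± 0.35, adjusted p 0.0349). The other Pdia4 probe set differed by 0.39. Of 11 regulators of the unfolded protein response, 2 were called higher and the median was 0.13. Xbp1, the transcription factor that IRE1 splices, differed by 1.40 ± 0.26 (adjusted p 0.0112, limma), with its other 3 probe sets at 0.31 to 1.09. Xbp1 averaged 4.83 ± 0.45 in H2 and 3.42 ± 0.28 in normal cells, the latter below the median probe set mean of 3.99. Ern1, which codes for IRE1 itself, differed by 1.27 ± 0.32 (adjusted p 0.0411), but its 4 other probe sets lay between -0.47 and 0.12, so its direction depends on the probe set. Of 16 ATF4 and CHOP targets, 1 was called higher and 0 lower: Ddit4 (REDD1), an inhibitor of mTORC1 signalling, averaged 7.15 ± 0.89 in H2 and 4.31 ± 1.10 in normal cells (2.84 ± 0.54, adjusted p 0.0127). Of 15 immediate early genes, which respond within minutes to many stimuli, 1 was called higher, Egr1, at 1.83 ± 0.46 (adjusted p 0.0404). None of these lists had a called gene in lesions or H1 against normal, or in H1 against H2.

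**Figure D5:**
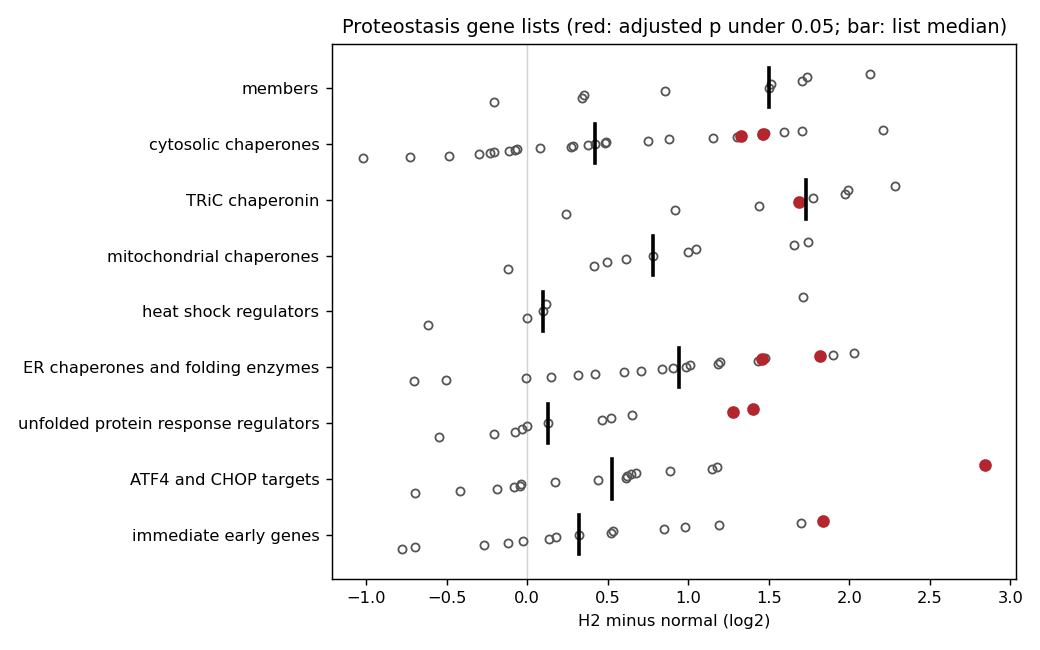
H2-minus-normal difference (log2) of each measured gene of the members and of 8 pathway lists. Red points had an adjusted p under 0.05 by limma, open points did not, and black bars are list medians. TRiC subunits all lie above 0, with a median of 1.73, and the members have no red point.

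Across the 15 arrays, levels of 5 members ran together: for Hspa8, Hspa5, Hsp90aa1, Hsph1 and Dnajb1 all 10 pairs had Pearson r between 0.75 and 0.95, as a description. Over all 36 pairs of members r ran from -0.46 to 0.95, with a median of 0.43. The lower of the 10 values were little above the median r with other genes given below, 0.69 for Hspa5 and 0.68 for Hsp90aa1. Hspa1a had r between -0.46 and 0.09 with the other 8, and 0.09 with its near-copy Hspa1b. The genes most like Hspa5 were Hsp90b1 (GRP94, the Hsp90 of the ER; r = 0.98), Ik (0.98) and Txn1 (thioredoxin, 0.98), against a median r of 0.69 over the 2305 genes with a mean of at least 6 that were compared, with members and unnamed predicted genes left out. Those most like Hsp90aa1 were Cdv3 (0.98), Txn1 (0.97) and Bag1 (a co-chaperone of Hsp70, 0.97), against a median of 0.68. Hspa1b was less closely matched, by Mosmo (0.90), Oxct1 (0.88) and R3hdm4 (0.83), against a median of 0.31. All these values share the arrays and their spread.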

How the data were processed

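Laser-captured lung regions were profiled on Affymetrix arrays. RNA was extracted with PicoPure and amplified with WT-Ovation One-Direct, per the labels' protocols. The authors deposited log2 values, 1 per probe set and array. The affy package and RMA (background correction, quantile normalization and probe summary) are named in the submitters' processing notes, with no version. From the 45101 probe sets, 64 controls were left out. Of the rest, 34945 carried 1 symbol, 932 several and 9160 none. The probe set with the highest mean stood for a gene, which left 18193 genes. Other probe sets were shown separately. Array medians lay between 3.87 and 4.06.

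Differences were tested with limma 3.58.1 (R 4.3.3; lmFit and eBayes), checked on simulated data, with Benjamini-Hochberg adjustment over all genes or all probe sets and a threshold of 0.05. Lesions against normal used 2 groups. The other comparisons used 3 groups with 1 shared estimate of spread. The members and lists were chosen with earlier results of these data known. Named were all members, the called genes of each list (otherwise up to 3 of lowest p), and the 3 genes most like Hspa1b, Hspa5 and Hsp90aa1. Alternatives were scaling, a filter on dim genes, the choice of probe set, the prior, array weights, covariates, the replicate number as a block, fewer arrays and leaving out each array.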

Additional observations from a re-analysis of the deposited data

Results flagged for a closer look

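Within groups of 4 to 8 arrays, 3 of 50 tested sets of values held an array far from the others, by Dixon's criterion, which chance meets in about 1 in 20 groups. The sets were of member probe set values and of array spread, and all 3 flagged were of probe sets. Hsp90aa1 probe set 1426645_at was 3.45 on H2 replicate 1, and the nearest of the other H2 arrays was at 7.68. Dnajb1 probe set 1416756_at was 4.62 on H2 replicate 1, and the other 3 H2 arrays all held the same value of 4.12, so any different value would have met the criterion. Hspa1b probe set 1427127_x_at was 2.75 on normal replicate 6, with the nearest at 3.58.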

How the results depend on the processing

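The count of 0 called members in lesions against normal, H1 against normal and H1 against H2 held under all alternatives run. In H2 against normal it was 5 with array weights and between 0 and 3 when arrays were left out, with 3 without normal replicate 3 and 1 without H2 replicate 1, and 0 under the other alternatives. The median difference of the members there was 0.15 with array spread as a covariate, against 0.82 to 1.71 when arrays were left out. In H1 against H2 the median was 0.34 with that covariate, against -0.56 without it. In H1 against normal the median was -0.051 with the replicate block, against 0.41 without it. The correlation of the deviations of same-numbered arrays ran between -0.14 and 0.38 over 7 pairs. In 4 pairs it was over 0.1, and 1 sample correlated best with its own number. No reference distribution was made, so these values do not tell whether same-numbered arrays shared a mouse or section. With the replicate block, H2 against normal gave 0 members called and a median of 0.98, with 34 genes called higher over all, against 525 without it. Genes called higher in H2 against normal ranged between 102 and 1104 when arrays were left out, and reached 1586 with array weights. Without the 2 narrowest normal arrays the H2-minus-normal difference of Hspa5 was 1.41 (adjusted p 0.0719, limma).

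Several differences that passed no test changed sign. With array spread as a covariate, lesions against normal gave -0.11 for Ddit3, -0.24 for Hspb1, -0.10 for Hsp90aa1 and -0.0091 for Dnajb1. H2 against normal then gave 0.17 for Hspa1a, -0.42 for Hsp90aa1, -0.37 for Dnajb1 and -0.077 for Ddit3. H1 against H2 then gave 0.63 for Hspa1b, 0.60 for Hspa8, 0.61 for Dnajb1, 0.54 for Hsp90aa1, 0.32 for Hspa5 and 0.34 for Hsph1. With repeated quantile normalization, lesions against normal gave -0.023 for Hspa1a and -0.025 for Ddit3, and H1 against H2 gave 0.062 for Hspa1b, 0.14 for Hspa8 and 0.32 for Dnajb1. With the mean of a gene's probe sets, the values were -0.20 for Hspb1 in lesions against normal, 0.17 for Ddit3 in H1 against normal, and 0.037 for Hspa1b and 0.015 for Hsp90aa1 in H1 against H2. With the most variable probe set they were -0.42 for Hspb1 in lesions against normal, 0.40 for Ddit3 in H1 against normal, -0.0023 for Hspb1 in H2 against normal and 0.091 for Hsp90aa1 in H1 against H2. The Actb covariate gave -0.14 for Hspb1 in lesions against normal and 0.022 for Hspa8 in H1 against H2. The Gapdh covariate gave -0.056 for Hspb1 in lesions against normal, 0.042 for Hspa1a in H2 against normal and 0.14 for Dnajb1 in H1 against H2. The replicate block gave -0.087 for Hspa1a, -0.051 for Hsph1 and -0.092 for Dnajb1 in H1 against normal, 0.15 for Hspa1a in H2 against normal and -0.23 for Hspa1a in H1 against H2. Array weights gave 0.10 for Ddit3 in H1 against normal. Without the 2 narrowest normal arrays, H1 against normal gave -0.024 for Dnajb1 and -0.34 for Hsp90aa1. When arrays were left out, the range was -0.095 to 0.13 for Hspb1 and -0.18 to 0.11 for Hspa1a in lesions against normal. In H1 against normal it was -0.20 to 0.048 for Ddit3, -0.0020 to 0.68 for Hsp90aa1 and -0.12 to 0.59 for Hspa1a, and in H1 against H2 it was -1.44 to 0.67 for Hspa1b. Why these values moved was not tested. Signals near background say little about low transcripts.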
